A study of Bursaphelenchus xylophilus with 12 samples.

Results

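In adult pine wood nematodes kept in the adjuvant alone, 79 genes stood higher after 24 h than after 12 h, while their level with emamectin benzoate was about as low at 24 h as at 12 h. These 79 genes are the subject here, out of 18036 gene IDs in the deposited table, of which 17704 are IDs of the reference annotation (BXY). They were chosen from measured values. The scale was log2(FPKM + 1), where FPKM counts fragments per kilobase of a gene and relative to library size. A gene was kept if its mean FPKM over the 12 libraries was 5 to under 800 and its 12 h level in adjuvant was exceeded at 24 h by at least 0.8 log2 units (the adjuvant change). Its change from 12 h to 24 h with emamectin benzoate (the EB change) had to be under 0.5 in size, and its level at 24 h at least 0.7 lower with emamectin benzoate than in adjuvant (the 24 h difference). The spread between 12 h replicates, as the root mean variance of both 12 h groups, had to be under 0.6. Of 10333 BXY genes in that FPKM window, 9310 met the bound on the spread, and 79 of these met all the others. Because these values chose the genes, the levels below describe them and test nothing.

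Whole adults of Bursaphelenchus xylophilus, strain NB-6, were immersed at 25 °C in groups of 200 per sample. EB12 and EB24 received emamectin benzoate (EB) at 0.1 mg/L for 12 h and 24 h. EC12 and EC24 received the adjuvant without EB for 12 h and 24 h, namely n-butyl alcohol with octylphenol polyoxyethylene-10, matched in concentration to the EB treatment. Each group had 3 libraries, and no group without adjuvant is among the samples used here. The titles say EC where the treatment text says ON, so EC was read as adjuvant by elimination. The labels do not say that replicates came from separate cultures, so their spread may be technical.

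Emamectin benzoate is an avermectin. Avermectins open glutamate-gated chloride channels of invertebrates, which silences nerve and muscle cells and paralyses nematodes, and emamectin benzoate is injected into pine trunks against this species, the agent of pine wilt disease. Octylphenol polyoxyethylene-10 is a non-ionic surfactant and n-butyl alcohol a solvent, and both are used to formulate agents that dissolve poorly in water. The deposited table pairs no ID with a symbol or a description. The functions of the 79 genes are therefore not analysed here, no sequence is given, and genes are named by ID.

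The listed FPKM values summed to between 824088 and 944595 per library. The number of reads behind a value is unknown, so no counting error can be given. The 12 h libraries were more variable than the 24 h libraries: over all 13768 genes whose FPKM reached 1 in 3 or more libraries (the tested genes, which include all 79), the median SD of log2(FPKM + 1) was 0.26 in EC12 and in EB12, against 0.12 in EC24 and 0.09 in EB24. The 12 h titles carry a group number that the 24 h titles lack, and the number differs between EC12 and EB12. What it marks is not stated. A batch that coincides with time, or at 12 h with EB, cannot be told apart from it. In RNA of whole worms, fewer cells of a type and less RNA per cell cannot be told apart either.

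**Figure D1:**
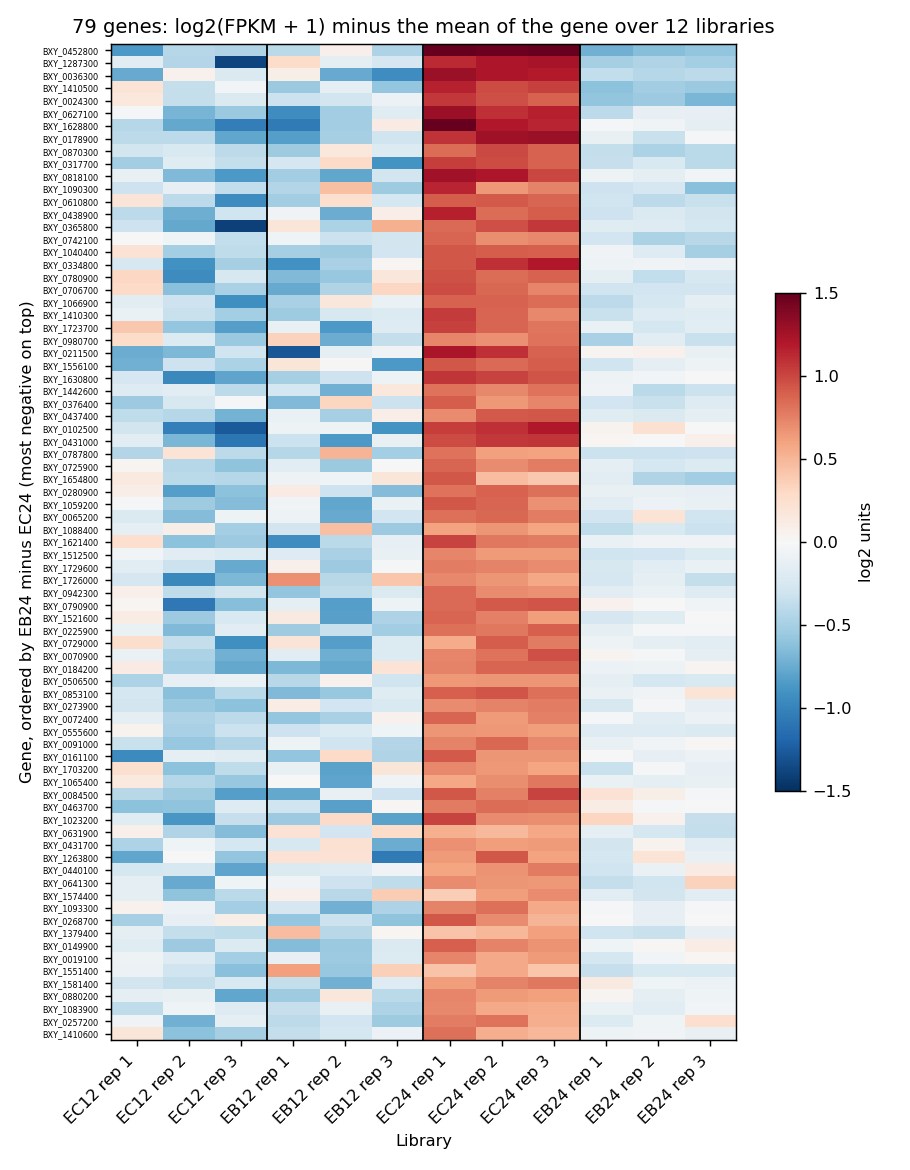
Each row is 1 of the 79 genes, ordered by the 24 h difference (EB24 minus EC24), and each column is 1 of 12 libraries. The colour is log2(FPKM + 1) minus the mean of the gene over all libraries. The 3 EC24 columns are high in all rows, and the 6 columns at 12 h vary more from library to library than the 3 EB24 columns.

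As a group the 79 genes had 1 high condition and 3 low ones. Over the means of 3 libraries, their median FPKM was 54.8 in EC24, against 24.9 in EC12, 26.0 in EB12 and 26.4 in EB24. Together they held 1.21% ± 0.03 (SD, n = 3) of the listed FPKM in EC24, against 0.580% ± 0.101 in EC12, 0.617% ± 0.054 in EB12 and 0.620% ± 0.007 in EB24. The adjuvant change had a median of 1.14 log2 units and a range of 0.80 to 2.08, beside a median of 0.04 over all tested genes. In mean FPKM this was 1.75-fold to 4.27-fold, with a median of 2.26-fold. The 24 h difference had a median of -0.93 and a range of -2.15 to -0.70, beside a median of 0.14 over all tested genes. EC24 exceeded EB24 1.65-fold to 4.52-fold in mean FPKM, with a median of 1.98-fold. A change of at least 1 log2 unit on both measures was found for 30 of the 79.

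The high EC24 level did not rest on single libraries. All 3 EC24 libraries lay above all 3 EC12 libraries in 79 of 79 genes, where 29% of all tested genes showed this. All 3 also lay above all 3 EB24 libraries in 79 of 79, beside 19.7% of all tested genes. EC24 stood above all 3 EB12 libraries in 75 of the 79, beside 33.6%, and above all other 9 libraries in the same 75, beside 9.78%. The rule used these contrasts, so the counts describe the choice. The 4 exceptions were BXY_1379400, BXY_1551400, BXY_1574400 and BXY_1726000, named after their values were seen, where the highest EB12 library reached at least the lowest EC24 library. In BXY_1726000 the EB12 libraries stood at 430, 200.0 and 357 FPKM and the EC24 libraries at 439, 421 and 398. EB12 replicate 1 lay within the EC24 range of that gene. In BXY_1551400, EB12 replicate 1 stood at 103.5 FPKM, above all 3 EC24 libraries at 91.3, 100.3 and 90.3.

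Most genes that stood higher at 24 h in adjuvant did so with EB as well. Of the 9310 genes of the window, 1241 had an adjuvant change of at least 0.8, and in 821 of these (66.2%) the EB change was also at least 0.8. In another 241 (19.4%) it was 0.5 to under 0.8, and in 9 it was -0.5 or less. The remaining 170 (13.7%) had an EB change under 0.5 in size. The 79 are the part of these 170 in which EB24 stood at least 0.7 below EC24, and the other 91 had a median 24 h difference of -0.47. The mirror pattern, a rise of at least 0.8 with EB and under 0.5 in adjuvant with EB24 at least 0.7 above EC24, was met by 113 genes. A fall of at least 0.8 in adjuvant that EB lacked, by the same bounds, was met by 232.

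**Figure D2:**
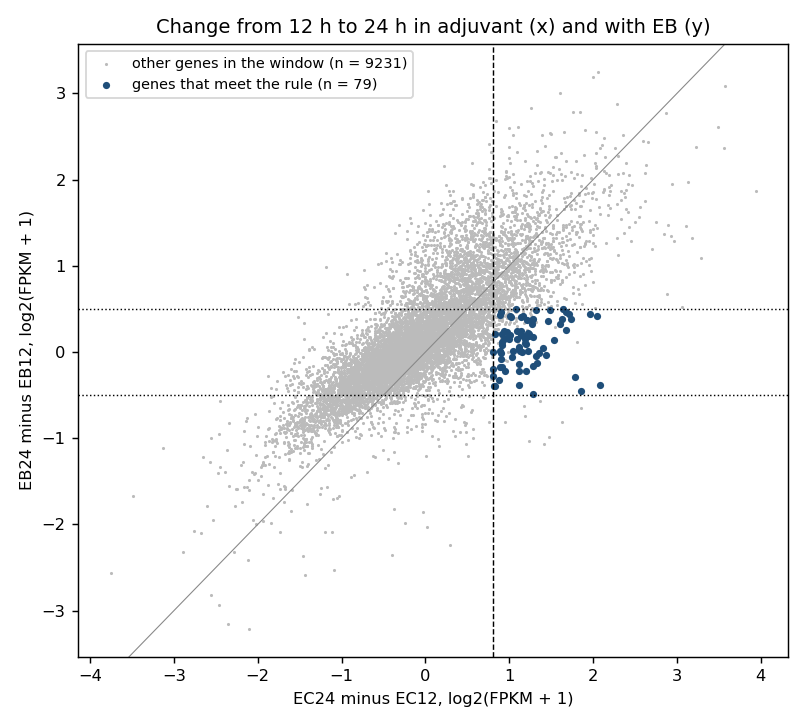
Each point is 1 of 9310 genes of the FPKM window, with the change from 12 h to 24 h in adjuvant on the x axis and with EB on the y axis, both in log2(FPKM + 1). The dashed line marks 0.8 and the dotted lines mark -0.5 and 0.5. The 79 genes (dark) lie to the right between the dotted lines, below the diagonal of equal change.

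The 79 genes spanned the whole FPKM window. By mean FPKM over all libraries, 30 lay at 5 to under 20, 20 at 20 to under 50, 20 at 50 to under 200 and 9 at 200 or more. These were 0.987%, 0.714%, 0.686% and 1.62% of the window's genes in the same classes. The size of the change was alike across the classes, with a median adjuvant change of 1.16, 1.00, 1.17 and 1.17 log2 units and a median 24 h difference of -0.94, -0.88, -1.02 and -0.91.

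The most abundant of them in EC24 was BXY_0431000. It stood at 1164, 1231 and 1235 FPKM in EC24 and 603, 590 and 620 in EB24, against 530, 365 and 278 in EC12 and 469, 324 and 546 in EB12. The EC24 values lay well apart from all others, and EB24 lay above all 6 libraries at 12 h, so this gene also stood somewhat higher at 24 h with EB. Its adjuvant change was 1.68 ± 0.27 log2 units (SE from the spread of the 2 groups, n = 3 each) and its EB change 0.47 ± 0.22. The EC24 mean was 1210 ± 39.9 FPKM and the EB24 mean 604 ± 14.7 (SD, n = 3). BXY_0790900 had almost the same levels, with 1146, 1205 and 1225 FPKM in EC24 and 665, 635 and 613 in EB24, against 650, 302 and 409 in EC12 and 575, 357 and 601 in EB12. In both genes EC12 replicate 1 was the highest of its group, and EB12 replicate 2 the lowest of its own.

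BXY_0742100 was steadier at 12 h. Its values were 847, 749 and 759 FPKM in EC24 and 377, 332 and 346 in EB24, against 458, 441 and 357 in EC12 and 442, 370 and 381 in EB12. The 12 h groups overlapped, and the EB24 mean of 352 lay below all 6 libraries at 12 h. The adjuvant change of this gene was 0.91 ± 0.12, the EB change -0.17 ± 0.10 and the 24 h difference -1.16 ± 0.08 log2 units.

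The remaining members among the 6 most abundant in EC24 were BXY_0225900, BXY_1621400 and BXY_0365800. BXY_0225900 had means of 920 ± 34.5 FPKM in EC24 and 495 ± 22.8 in EB24, against 422 ± 84.8 in EC12 and 374 ± 28.9 in EB12 (SD, n = 3), and all 3 EB24 libraries lay above all 3 EB12 libraries. BXY_1621400 had means of 709 ± 65.9 FPKM in EC24 and 371 ± 5.96 in EB24, against 328 ± 118 in EC12 and 285 ± 77.6 in EB12. BXY_0365800 stood out by its 12 h levels, with EC12 libraries at 197, 143 and 91.5 FPKM and EB12 libraries at 278, 175 and 355. At 24 h it stood at 442, 477 and 509 in EC24 and at 215, 214 and 203 in EB24. Its EB12 mean was 1.88-fold its EC12 mean. The log2 difference of 0.91 ± 0.44 (SE) was the largest at 12 h among the 79, but the 12 h groups overlapped.

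**Figure D3:**
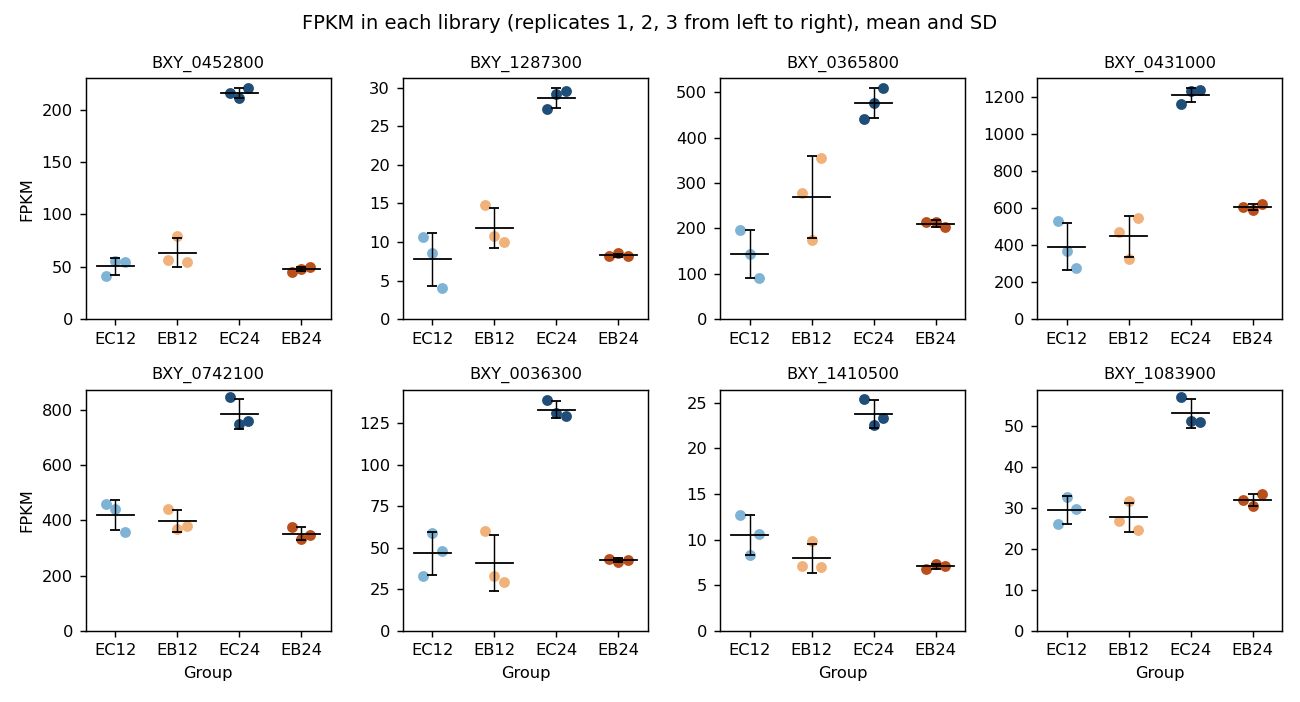
FPKM in each library (points, replicates 1 to 3 from left to right) with the mean (line) and SD (bar) of each group, for 8 of the named genes, each panel on its own axis from 0. EC24 is the highest group in every panel, from a mean of 23.8 FPKM in BXY_1410500 to 1210 in BXY_0431000.

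BXY_0452800 had both the largest adjuvant change and the largest 24 h difference of the 79. It stood at 215, 211 and 221 FPKM in EC24 and 45.3, 48.1 and 49.7 in EB24, against 41.2, 55.8 and 54.8 in EC12 and 56.7, 79.6 and 54.3 in EB12. The EC24 libraries agree closely and stand far above the rest, and all 3 EB24 libraries lay below all 3 EB12 libraries. The adjuvant change was 2.08 ± 0.14, the EB change -0.39 ± 0.18 and the 24 h difference -2.15 ± 0.04 log2 units. BXY_1287300 had the same shape at a lower level, with 27.2, 29.2 and 29.6 FPKM in EC24 and 8.21, 8.53 and 8.16 in EB24, against 10.6, 8.60 and 4.00 in EC12 and 14.8, 10.8 and 9.97 in EB12. EC12 replicate 3 was low in this gene, and the adjuvant change of 1.85 ± 0.37 carries a wide error, while the 24 h difference of -1.67 ± 0.04 does not.

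The other 4 genes with the largest 24 h differences were BXY_0036300, BXY_1410500, BXY_0024300 and BXY_0627100. BXY_0036300 stood at 139, 131 and 129 FPKM in EC24 and 43.6, 41.7 and 42.8 in EB24, against 32.8, 58.7 and 48.4 in EC12 and 60.01, 33.1 and 29.1 in EB12. The EB24 libraries lay inside the wide range of the 12 h libraries, and the EB change was 0.14 ± 0.31 log2 units. BXY_1410500 had means of 23.8 ± 1.49 FPKM in EC24 and 7.08 ± 0.27 in EB24, against 10.5 ± 2.20 in EC12 and 7.96 ± 1.597 in EB12. BXY_0024300 had means of 60.0 ± 3.59 FPKM in EC24 and 19.4 ± 1.001 in EB24, against 27.6 ± 5.48 in EC12 and 25.6 ± 2.30 in EB12, and its EB24 mean lay below all 6 libraries at 12 h. BXY_0627100 had means of 105 ± 7.01 FPKM in EC24 and 39.6 ± 4.23 in EB24, against 34.6 ± 9.11 in EC12 and 31.9 ± 8.38 in EB12.

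Large adjuvant changes were also found where EB24 stood above the 12 h means. BXY_1628800 stood at 127, 98.2 and 94.3 FPKM in EC24 and 41.1, 40.5 and 38.3 in EB24, against 31.0, 24.4 and 19.9 in EC12 and 19.7, 29.1 and 45.8 in EB12. EB12 replicate 3 of this gene reached above the EB24 libraries. BXY_0102500 had means of 191 ± 10.9 FPKM in EC24 and 93.9 ± 7.82 in EB24, against 50.3 ± 19.2 in EC12 and 71.4 ± 21.2 in EB12. BXY_0178900, the least abundant of the named genes in EC12, had means of 14.7 ± 1.23 FPKM in EC24 and 5.08 ± 0.65 in EB24, against 3.74 ± 0.70 in EC12 and 3.69 ± 0.84 in EB12. The adjuvant changes of these 3 genes were 2.05 ± 0.22, 1.97 ± 0.30 and 1.73 ± 0.15 log2 units, and their EB changes 0.41 ± 0.34, 0.44 ± 0.28 and 0.38 ± 0.18.

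Each bound divided genes of nearly equal values on its own measure. BXY_1379400, BXY_1512500 and BXY_1088400 lay just inside the bound on the adjuvant change, at up to 0.81 log2 units, and BXY_0363400, BXY_0943600 and BXY_0412700 just outside, at 0.799, 0.796 and 0.795. For the 24 h difference, BXY_1410600, BXY_0257200 and BXY_1083900 lay just inside at -0.704, -0.713 and -0.716, and BXY_0510400, BXY_0289600 and BXY_0648900 just outside at -0.697, -0.694 and -0.685. Just outside the bound on the EB change lay BXY_0076900, BXY_1055000 and BXY_0035000, at 0.502, 0.509 and 0.51. Genes just outside a bound were not all weak on the other measures. BXY_1055000 had an adjuvant change of 2.02 and a 24 h difference of -1.27, and BXY_0943600 a 24 h difference of -1.39. In all, 61 genes missed only the bound on the adjuvant change, 91 only that on the 24 h difference and 84 only that on the EB change. More genes missed a single bound than met all of them.

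Not all genes near a bound had separate EC24 values. BXY_1379400 stood at 33.5, 35.2 and 38.4 FPKM in EC24 and at 34.5, 18.3 and 25.2 in EB12, so EB12 replicate 1 lay within the EC24 range. BXY_1083900 and BXY_0880200 were named among genes whose EC24 libraries exceeded all 9 others, so their separation was set by that choice. BXY_1083900 stood at 57.2, 51.2 and 51.1 FPKM in EC24 and 32.0, 30.5 and 33.4 in EB24, against 26.1, 32.7 and 29.8 in EC12 and 26.9, 31.7 and 24.7 in EB12. BXY_0880200, also among the smallest 24 h differences, had means of 393 ± 16.8 FPKM in EC24 and 238 ± 16.4 in EB24, against 199 ± 47.6 in EC12 and 212 ± 58.0 in EB12. BXY_1512500 had means of 44.4 ± 2.90 FPKM in EC12 and 40.7 ± 5.42 in EB12, and stood at 78.1 ± 3.16 in EC24 and 40.6 ± 1.49 in EB24. Its EB change was 0.00 ± 0.12 log2 units.

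With EB the 79 genes moved little from 12 h to 24 h, as the rule required. The EB change had a median of 0.15, equal to the median of 0.15 over all tested genes. As deposited it was above 0 in 54 genes (68.4%) and below 0 in 25, beside 59.6% of all tested genes above 0. Once libraries were rescaled by their median ratio, it was above 0 in 35 (44.3%) and below in 44, beside 48.9%. Once quantile normalized, it was above 0 in 33 (41.8%) and below in 46, beside 49.1%. These scalings moved the median of all tested genes to -0.018 and -0.015, and that of the 79 to -0.024 and -0.079. The EB24 mean lay within the range of the 6 libraries at 12 h in 62 genes, above it in 15 and below it in 2, BXY_0024300 and BXY_0742100. No share over all tested genes is given for these counts, which the bound on the EB change shaped. All 3 EB24 libraries lay above all 3 EB12 libraries in 15 of the 79, beside 37.6% of all tested genes, and below them in 4, beside 19.2%. They lay above all 3 EC12 libraries in 18, beside 32.6%.

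An EB change under 0.5 is not the same as no change. Its SE had a median of 0.22 log2 units over the 79 and reached 0.45, because the 12 h libraries entered it. In limma, fitted over all 12 libraries with p-values adjusted over the tested genes by Benjamini and Hochberg and a threshold of 0.05, 5 of the 79 were higher and 1 lower in EB24 than in EB12, where 30.3% of all tested genes were higher and 13.1% lower. The 5 were BXY_0084500, BXY_0149900, BXY_0225900, BXY_0268700 and BXY_0853100, with EB changes of 0.41 to 0.50, and the 1 was BXY_0024300, with -0.38. The count of 6 was 10 without EB12 replicate 2. It was 2, 1 and 1 when EB24 replicate 1, 2 or 3 was left out. Over all tested genes, 4167 were called higher and 1808 lower. Without EB12 replicate 2 these were 3934 and 1718. Without EB24 replicates 1 to 3 the higher calls were 3373, 3195 and 3353, and the lower calls 1216, 1172 and 1233. The bound of 0.5 on the EB change held the count among the 79 low in advance. Its distance from the shares of all tested genes therefore describes the choice.

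The other comparisons of the same fit gave counts that the choice of the genes likewise fixed in large part, and they are listed as a description. In EC24 against EC12, 79 of 79 were called higher, beside 24.7% of all tested genes. In EB24 against EC24, 74 of 79 were called lower, beside 4.74%, and the count was 49 without EC24 replicate 2, 47 without EC24 replicate 3 and 47 without EB24 replicate 2. Over all tested genes the lower calls went from 653 to 296, 297 and 262 in these settings. The 5 that were not called with all 12 libraries were BXY_0729000, BXY_1023200, BXY_1263800, BXY_1551400 and BXY_1703200. The fit takes 1 spread per gene from all 12 libraries, so the more variable 12 h libraries enter the error of this comparison. Fitted on the 6 libraries at 24 h alone, 2326 of all tested genes were called lower and 4941 higher. With all 12 libraries these were 653 and 1998. By the spread of EC24 and EB24 alone, the 24 h difference exceeded 2 SE in all 79. That SE was at most 0.226 log2 units, small beside the bound on the 24 h difference, so this count follows from the choice. No share over all tested genes is given for it, and it adds no support for the 5 genes that were not called. In the interaction, which asks whether the EB effect differed between 12 h and 24 h, 44 of 79 were called with a more negative effect at 24 h, beside 1.86%, and none with a more positive one, beside 6.46%. That count fell to 27 without EB12 replicate 3, to 18, 11 and 12 without EC24 replicates 1 to 3, and to 13 without any 1 of the EB24 replicates. Over all tested genes it went from 256 to 141 without EB12 replicate 3, to 85, 57 and 55 without EC24 replicates 1 to 3, and to 64, 59 and 54 without EB24 replicates 1 to 3. For the other 35, a rise in adjuvant that differs from the change with EB was not shown by this test.

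At 12 h the EB12 and EC12 libraries overlapped in all but 1 of the 79 genes. The difference EB12 minus EC12, which the other differences fix, had a median of 0.07 log2 units and a range of -0.36 to 0.91, beside a median of -0.05 over all tested genes. It was above 0 in 50 genes and below 0 in 29. In limma, 0 of the 79 were called in either direction, where 0.0726% of all tested genes were called higher and 0.0436% lower. At an unadjusted p under 0.05 the numbers were 7 higher and 0 lower, beside 3.53% and 8.62% of all tested genes. Without EB12 replicate 2, 3 of the 79 were called higher, and the calls over all tested genes rose from 10 to 133 higher and from 6 to 177 lower. All 3 EB12 libraries lay above all 3 EC12 libraries in 1 gene, BXY_0440100, beside 2.43% of all tested genes, and below them in 0, beside 7.41%.

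**Figure D4:**
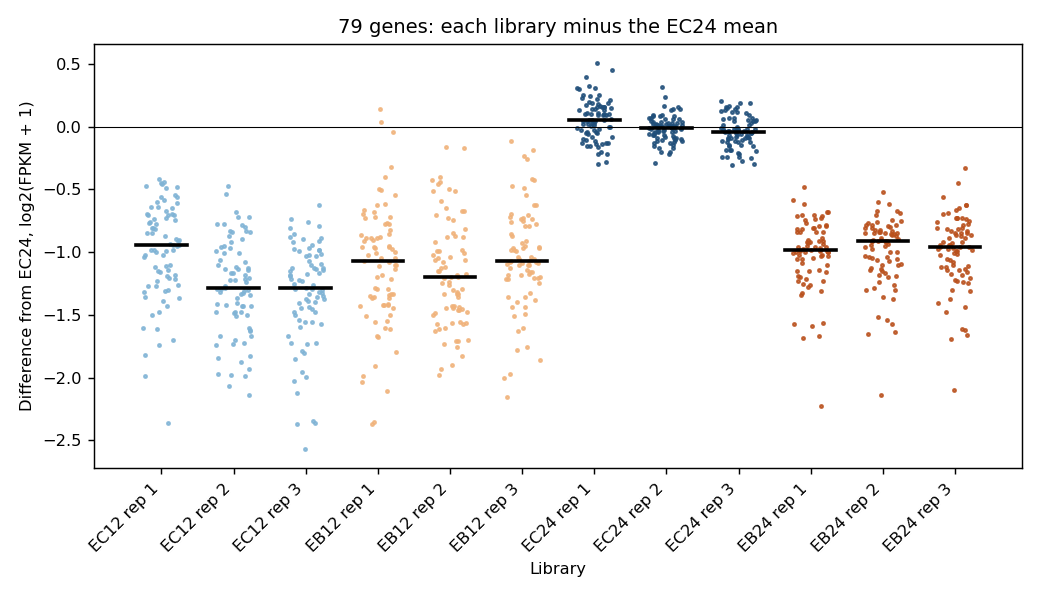
Each point is 1 of the 79 genes in 1 library, as log2(FPKM + 1) minus the mean of the EC24 libraries. An EC24 library is set against the mean of the other EC24 libraries, and the bars are medians. All 9 other libraries have medians between -0.92 and -1.29, with EC12 replicate 1 nearer to EC24 than EC12 replicates 2 and 3.

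The 3 EC12 libraries did not stand equally low. The median gap of the 79 genes below the EC24 mean was 0.94 log2 units in EC12 replicate 1, 1.28 in EC12 replicate 2 and 1.29 in EC12 replicate 3. It was 1.07, 1.2 and 1.07 in EB12 replicates 1 to 3 and 0.98, 0.92 and 0.96 in EB24 replicates 1 to 3. A gap of at least 0.8 was present in 51, 70 and 75 genes in the 3 EC12 libraries, and in 63, 64 and 61 in the EB24 libraries. The median gap over all tested genes was -0.08, 0.09 and 0.11 in the 3 EC12 libraries.

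The order of replicates within a group entered the rule only through the size of the spread at 12 h. EC12 replicate 1 was the highest library of its group in 55 of the 79 genes (69.6%), where it was the highest in 35.3% of the 9310 genes of the window. In EB12, replicate 3 was the highest in 35 of the 79 (44.3%), beside 19.2% of the window. Both were the highest in the same 29 genes (36.7%), beside 10.5% of the window. At 24 h the shares lay closer together: EC24 replicate 1 was the highest in 54.4% of the 79 and 52.4% of the window. No test was run on these shares, since genes of 1 library are not independent.

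**Figure D5:**
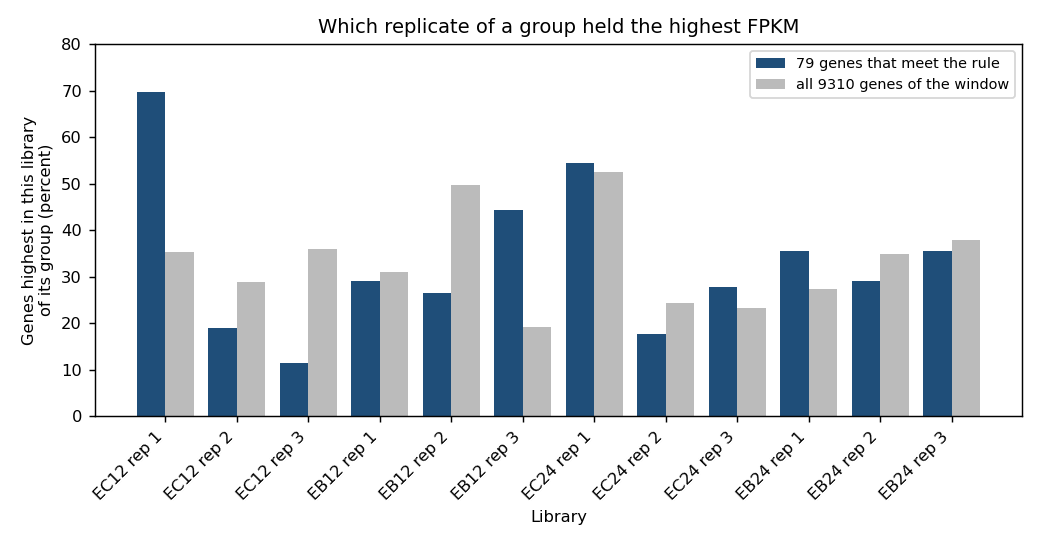
Percent of genes whose highest FPKM within a group fell in the library on the x axis, for the 79 genes (dark bars) and the 9310 genes of the window (grey bars). The largest gap between the bars is at EC12 replicate 1, with 69.6% against 35.3%.

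A smaller set of the 79 ran the other way at 12 h. EC12 replicate 1 was the lowest library of its group in 14 genes, BXY_0452800, BXY_0036300 and BXY_1083900 among them. These are 17.7% of the 79, a lower share than the 40.2% of the window. In the 55 genes with EC12 replicate 1 highest, it stood a median of 0.49 log2 units above the mean of EC12 replicates 2 and 3, and EB12 replicates 1, 2 and 3 deviated by medians of 0.06, -0.15 and 0.17 from their group mean. In the 14 genes it stood 0.36 below, and the EB12 replicates deviated by -0.06, 0.35 and -0.20. The sets had like changes otherwise, which the rule bounded in both. Their median adjuvant change was 1.16 and 1.18, and their median 24 h difference -0.93 in both. BXY_0161100, chosen after its values were seen, stood at 487, 407 and 410 FPKM in EC24 and 259, 236 and 242 in EB24, against 133, 232 and 230 in EC12 and 171, 315 and 188 in EB12.

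Leaving out 1 library and applying the rule to the other 11 gave genes whose level in the left-out library had not been used. Without 1 EC24 library the rule found 77, 83 and 85 genes, and in the left-out EC24 library 90.9%, 86.7% and 82.4% of them stood at least 0.8 above EC12, beside 13.3% to 14.4% of the window. Without 1 EB24 library it found 84, 83 and 82 genes, of which 86.9%, 84.3% and 82.9% stood at least 0.7 below EC24 in the left-out library, beside 2.91% to 3.11% of the window. In most of these genes the left-out library at 24 h passed the same bound. Only that library was unused, since the rule had already chosen the means it was set against. High shares beside the window therefore follow in part from the choice, and the replicates may be technical.

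The left-out 12 h libraries gave less even shares, with the same limit. Without EC12 replicate 1 the rule found 108 genes. EC24 exceeded that library by at least 0.8 in 49 of them (45.4%), beside 10.6% of the window. The median was 0.74 log2 units, beside -0.12 over the window. Without EC12 replicates 2 and 3 the rule found 75 and 71 genes. Of these, 81.3% and 88.7% were past that bound, beside 17.4% and 15.9% of the window. The medians were 1.22 and 1.29, beside -0.04 and -0.10 over the window. Without EB12 replicates 1, 2 and 3 the rule found 94, 87 and 75 genes. In 60.6%, 47.1% and 61.3% of them the change from the left-out library to EB24 was under 0.5 in size. The window shares were 63.1%, 52.4% and 61.0%. In the left-out EB12 libraries a small EB change was about as frequent among the chosen genes as in the window.

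Of the 79 genes, 31 met the rule whichever library was left out, BXY_0452800, BXY_0742100, BXY_0225900, BXY_0036300, BXY_1410500 and BXY_0024300 among them. Another 26 met it in 10 or 11 of these 12 cases, and 22 in fewer, down to 7.

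Some of the 79 carry neighbouring ID numbers. BXY_1410300, BXY_1410500 and BXY_1410600 lie 2 and 1 steps of the numbering apart, and were picked out for that after the list was known. Where they lie in the genome was not analysed here. Their 24 h differences were -1.11, -1.62 and -0.70 log2 units, their adjuvant changes 1.2, 1.12 and 0.94, and their EC24 means 64.4, 23.8 and 61.5 FPKM. In all 3, EC12 replicate 1 was the highest library of its group. Reads shared between similar or overlapping genes cannot be told apart in FPKM values.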

How the data were processed

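Whole-worm messenger RNA was sequenced in 12 libraries, 3 in each of 4 groups taken from the titles. FPKM values are as the authors deposited them, 1 column per library. Per the submitters' processing notes, TopHat2 2.1.1 was used. Which build, annotation, counting tool and strand setting lie behind the values is not given in the sources used here. Since FPKM is relative to the library, a change in abundant genes shifts all others. All value columns matched 1 title each, and 0 pairs of libraries were identical.

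From these values log2(FPKM + 1) was computed, the rule was applied to it, and SEs were taken from the spread of the groups compared. Calls come from limma 3.58.1 in R 4.3.3 (1 mean per group, 12 libraries, eBayes with trend, two-sided, Benjamini-Hochberg adjusted p under 0.05) over the 13768 genes whose FPKM reached 1 in 3 or more libraries. The rule and fit were tested on simulated data. Fold changes on the log2(FPKM + 1) scale understate those of low genes. The members, lists and tests were chosen with earlier results of these data known. Named genes were taken from the 79. They are the 6 highest in EC24, the 6 largest adjuvant changes, and the 6 largest and 4 smallest 24 h differences. The 4 smallest were sought where EC24 lay above all other 9 libraries. The 3 just inside the bound on the adjuvant change and the 3 just inside that on the 24 h difference were added. These parts overlap and give 22 genes. Genes just outside a bound are also printed, but belong neither to the 79 nor to the 22. No list by function was filled, since descriptions of the IDs were not used here. Alternatives were other pseudocounts, scalings and filters, fits of 6 libraries, a replicate block, no trend and leaving out each library.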

Additional observations from a re-analysis of the deposited data

Results flagged for a closer look

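By limma's interaction test the EB effect was more negative at 24 h than at 12 h in 44 of the 79 genes (adjusted p under 0.05). Of all tested genes, 1.86% had a more negative effect and 6.46% a more positive one. The rule chose the genes on the means that enter this test, so the count is no separate evidence of a difference. It was 11 to 60 with any 1 library left out. Calls of a more negative effect over all tested genes, 256 with all 12 libraries, were then 54 to 665.

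Of the 22 named genes, 16 passed it. As the effect at 24 h less that at 12 h, the difference was -2.47 log2 units for BXY_0452800, -2.30 for BXY_1287300, -2.08 for BXY_0365800 and -1.64 for BXY_1628800. It was -1.53 for BXY_0102500, -1.49 for BXY_0024300, -1.40 for BXY_0036300 and -1.35 for BXY_0178900. It was -1.28 for BXY_0627100, -1.25 for BXY_1410500, -1.21 for BXY_0431000 and -1.09 for BXY_0742100. The smallest were -1.08 for BXY_1379400, -0.80 for BXY_1512500, -0.74 for BXY_0225900 and -0.63 for BXY_1083900. Groups of 3 libraries are too small for a check of single outlying libraries.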

How the results depend on the processing

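The rule found 82 and 80 genes with pseudocounts of 0.1 and 0.5, 123 with libraries rescaled by the median ratio and 130 when quantile normalized, and 73, 76, 67 and 65 of the 79 were among them. It found 30 with both bounds at 1 log2 unit, 111 with a mean FPKM from 1, and 71 to 108 without 1 library, with 60 to 76 of the 79 kept. The median EB change of the 79 was -0.024 and -0.079 under these scalings, and 0.12 to 0.16 without 1 library. The median adjuvant change was 1.09 to 1.25 and the median 24 h difference -0.96 to -0.92 without 1 library. Calls among the 79 without 1 library were 76 to 79 in EC24 against EC12, 47 to 78 in EB24 against EC24, 1 to 10 in EB24 against EB12, 0 to 3 in EB12 against EC12 and 11 to 60 in the interaction. Over all tested genes, leaving out 1 library gave 2757 to 4013 higher calls in EC24 against EC12. It gave 262 to 924 lower calls in EB24 against EC24, and 54 to 665 in the interaction. In EB24 against EB12 it gave 3195 to 4549 higher and 1172 to 2007 lower calls. In EB12 against EC12 it gave 3 to 133 higher and 0 to 177 lower. The interaction count of the 79 was 29 with no filter on low values, where 178 of all 18036 IDs were called lower. The cause of these moves was not tested. The replicate numbers are not said to pair libraries, and same-numbered libraries deviated together with correlations of -0.05 to 0.34, not every library most with its own number. Between EB12 and EC12, differently numbered libraries had correlations of -0.57 to 0.53. Between EB24 and EC24, all correlations lay from -0.05 to 0.04. With a replicate block the counts were 79, 74, 4, 0 and 39. Over all tested genes the block gave 3403 higher calls in EC24 against EC12. It gave 623 lower calls in EB24 against EC24 and 231 in the interaction. In EB24 against EB12 it gave 4156 higher and 1761 lower calls, and in EB12 against EC12 5 and 0. Of 704 values of named genes under alternatives, 658 stayed on their side of the threshold, 46 no longer passed it and the direction held in all of them. The unknown read depth limits the precision of genes of low FPKM.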

Other observations

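The same bounds on the changes and the spread were applied to genes that the rule leaves out. Of 131 BXY genes with a mean FPKM of 800 or more, 5 met them. BXY_0998300 was the most abundant, with 4140 ± 57.1 FPKM in EC24 and 2399 ± 40.6 in EB24, against 2344 ± 156 in EC12 and 2509 ± 64.9 in EB12 (SD, n = 3). BXY_0592900 had means of 2719 ± 180 FPKM in EC24 and 1534 ± 99.3 in EB24, against 1544 ± 302 in EC12 and 1455 ± 238 in EB12. BXY_1624700 had 1738 ± 121 FPKM in EC24 and 1015 ± 70.3 in EB24, against 596 ± 196 in EC12 and 755 ± 117 in EB12. BXY_0710000 and BXY_1672800 had EC24 means of 1835 ± 78.1 and 1742 ± 111 FPKM and EB24 means of 954 ± 17.8 and 1006 ± 37.1.

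Of 72 loci outside the reference annotation (XLOC) in the FPKM window with a 12 h spread under 0.6, 1 met the bounds. XLOC_003934 had means of 40.8 ± 5.09 FPKM in EC24 and 22.6 ± 3.72 in EB24, against 10.9 ± 3.63 in EC12 and 20.2 ± 7.18 in EB12.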
